A study of Mus musculus with 2 samples.

Results

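The SLC25 genes encode the mitochondrial carriers, and 44 of them were followed in 2 polyadenylated RNA-seq libraries of induced mouse erythroid cells. They are all protein-coding genes whose symbol is Slc25a followed by a number, except Slc25a37, Slc25a38 and Slc25a39, the mitoferrin 1, mitochondrial glycine and glutathione carrier genes. The gene tables hold 43346 Ensembl genes, of which 21474 are protein-coding. The cells were G1E-ER4, an immortalized erythroid line that was made from Gata1-null mouse embryonic stem cells and carries a fusion of GATA1 with an estrogen receptor domain, through which estradiol switches it on. Per the labels, Gata1 function had been restored and estradiol (E2) had started differentiation; neither a dose nor a time is given, and the source is described as male and postnatal. Both libraries belong to this 1 group, numbered biological replicates 1 and 2. They cite 1 biosample, so the spread between them may be technical, and no uninduced or untreated sample was analysed here. The level of a gene is given in TPM, a unit corrected for transcript length and scaled to the same total in each library. In such bulk samples, fewer expressing cells and less RNA per cell cannot be told apart. Values after ± are SDs over the 2 libraries (n = 2).

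Carriers of this family are small proteins with repeated membrane-spanning helices. They sit mostly in the inner mitochondrial membrane and exchange nucleotides, phosphate, carboxylates, amino acids, cofactors and metal ions between the matrix and the cytosol. In erythroid cells the first and last steps of haem synthesis take place in the matrix, so iron, amino acids, cofactors and intermediates have to cross this membrane. Carriers are made in the cytosol and inserted by the TIM22 translocase with the help of small TIM chaperones.

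The libraries held 68901065 and 51923117 estimated counts in replicates 1 and 2. Of the erythroid markers 6 of 6 reached 1 TPM in both libraries, with summed levels of 16799 and 19155 TPM. The myeloid list had 1 of 5 markers at that level (sums of 1.28 and 1.44 TPM), and the lymphoid and fibroblast lists had 0 of 4 each, with Ptprc, Cd3e, Dcn, Pdgfra and the myeloid marker Lyz2 at 0 counts. The megakaryocyte list had 2 of 4, Itga2b and Gp1ba, and summed to 50.4 and 66.3 TPM.

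Of the 44 carriers 30 reached 1 TPM in both libraries, here called detected. This is 68.2% of the members, while 39.0% of protein-coding genes met the same rule. The median of all 44 members was 5.41 TPM, against 0.025 TPM over all protein-coding genes, most of which were not detected. Among detected genes the order was the other way round: the detected members had a median of 12.15 TPM and detected protein-coding genes 20.5 TPM. In both libraries 16 members stood at 10 TPM or more, 6 at 50 TPM or more and 3 at 100 TPM or more. The whole family summed to 1455 TPM in replicate 1 against 1272 TPM in replicate 2. Its phosphate carrier Slc25a3 alone made up 36.6% and 32.3% of that sum, and the 6 highest members together 79.4% and 74.9%. The family's RNA was thus concentrated in a few genes in both libraries.

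**Figure D1:**
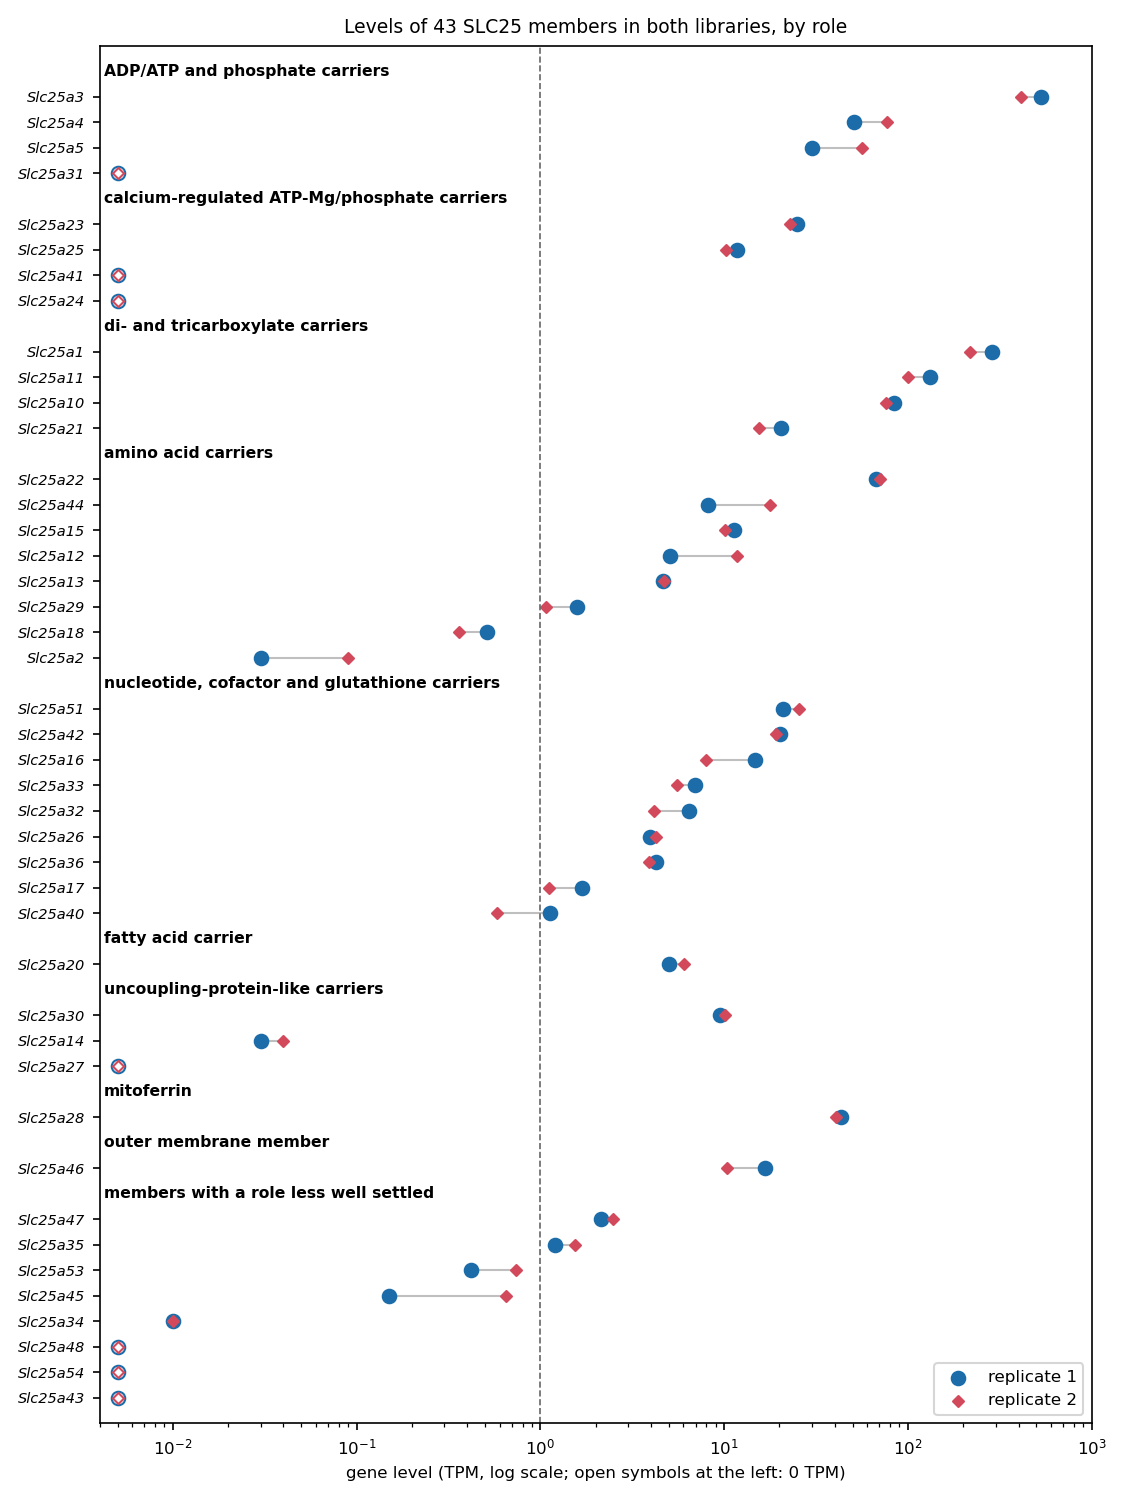
Level of 43 SLC25 members in TPM on a log axis, grouped by role, with circles for replicate 1, diamonds for replicate 2 and the dashed line at 1 TPM. The 7 members with 0 counts in both libraries are drawn as open symbols at the left edge, and Slc25a3 lies farthest to the right at 533 and 411 TPM.

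The carriers that supply ATP synthesis included the highest member. Slc25a3 brings phosphate into the matrix and lies on the minus strand at chr10:91116574-91124059 (mm10, as are all positions given). Its level was 533 TPM in replicate 1 against 411 TPM in replicate 2 (472 ± 86.3 TPM). This gene is known for a pair of alternative coding exons that are used one at a time, so its RNA comes in forms that differ in a short stretch of the protein. The model with the downstream exon, Slc25a3-201, held 72.8% of the gene's TPM in replicate 1 and 54.6% in replicate 2. The model with the upstream exon, Slc25a3-206, held 16.3% and 35.3%. By the authors' estimates both models thus held TPM in both libraries. The downstream model was ahead in each, by a narrower margin in replicate 2. Whether both forms were present as such was not tested. A retained-intron model, Slc25a3-208, took 8.59% and 7.42%. The exons are printed because the estimated balance between their models differed between the libraries. The upstream exon (chr10:91122207-91122331) has 125 bases, the downstream exon (chr10:91121922-91122043) has 122, and they are identical at 61.6% of aligned positions. Capitals mark bases that do not align to an identical base of the other exon.
Slc25a3 upstream exon: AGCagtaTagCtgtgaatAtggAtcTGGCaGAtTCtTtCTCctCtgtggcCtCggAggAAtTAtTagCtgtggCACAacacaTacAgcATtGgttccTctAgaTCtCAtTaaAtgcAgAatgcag
Slc25a3 downstream exon: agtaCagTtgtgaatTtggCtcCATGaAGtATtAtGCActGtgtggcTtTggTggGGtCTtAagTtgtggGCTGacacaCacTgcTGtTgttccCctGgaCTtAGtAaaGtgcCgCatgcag

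The ADP/ATP carriers swap matrix ATP for cytosolic ADP. Slc25a4, known as the heart and muscle form, had 50.8 TPM in replicate 1 against 76.7 TPM in replicate 2 (63.8 ± 18.3 TPM). Slc25a5, the form known from proliferating cells, had 30.2 and 56.4 TPM (43.3 ± 18.5 TPM). Both were higher in replicate 2, and Slc25a4 was the higher of the pair in each library by its gene level. The germ cell form Slc25a31 had 0 counts in both libraries, which allows up to 3 counts in each. With that floor Slc25a5 was at least 889-fold higher than Slc25a31 in replicate 1 and at least 1250-fold higher in replicate 2.

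The carriers that exchange ATP-Mg for phosphate were split. Slc25a23 had 24.9 TPM in replicate 1 against 22.8 TPM in replicate 2 (23.8 ± 1.48 TPM), and Slc25a25 had 11.8 and 10.2 TPM. Slc25a24 and Slc25a41 had 0 counts in both libraries. Slc25a23 was therefore at least 945-fold and at least 650-fold above its paralog Slc25a24 in replicates 1 and 2.

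All 4 di- and tricarboxylate carriers were detected, and 3 of them are among the 4 highest members of the family. Slc25a1, which exports citrate (chr16:17925223-17928219, minus strand), had 288 and 218 TPM in replicates 1 and 2, a mean of 253 ± 49.4 TPM. Slc25a11, the carrier that exchanges oxoglutarate for malate (chr11:70644196-70647479, minus strand), had 132 and 100.5 TPM, a mean of 116 ± 22.2 TPM. Slc25a10, the dicarboxylate carrier that exchanges malate or succinate for phosphate (chr11:120491840-120499187, plus strand), had 84.4 and 75.8 TPM, a mean of 80.1 ± 6.07 TPM. The oxodicarboxylate carrier Slc25a21 came last of the 4 with 20.4 and 15.5 TPM. Each of the 4 was higher in replicate 1 by gene-level TPM, and their order was the same in both libraries. By gene-level TPM Slc25a11 and Slc25a10 lay farther apart than the spread between the libraries of either. Their order was the reverse by estimated counts, with 4394 and 2915 for Slc25a11 and 9417 and 6314 for Slc25a10. It was also the reverse by protein-coding models, with means of 23.4 TPM for Slc25a11 and 77.6 TPM for Slc25a10.

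Of the 8 amino acid carriers 6 were detected. Slc25a22, a glutamate carrier (chr7:141429744-141437892, minus strand), led them at 66.9 and 70.5 TPM, a mean of 68.7 ± 2.52 TPM, while its paralog Slc25a18 had 0.51 and 0.36 TPM. The carrier of branched-chain amino acids, Slc25a44, had 8.15 TPM in replicate 1 against 17.8 TPM in replicate 2 (13.0 ± 6.82 TPM). It was higher in replicate 2, with a gap wider than that of most members. The ornithine carrier Slc25a15 had 11.3 and 10.2 TPM (10.8 ± 0.827 TPM), and its paralog Slc25a2 had 0.03 and 0.09 TPM from 2 and 5 counts. The aspartate/glutamate carriers of the malate-aspartate shuttle were both present, Slc25a12 at 5.09 and 11.8 TPM (8.45 ± 4.75 TPM) and Slc25a13 at 4.65 and 4.72 TPM (4.69 ± 0.0495 TPM). Their levels could not be ordered beyond the spread of Slc25a12. Slc25a29, a carrier of basic amino acids, had 1.59 and 1.08 TPM.

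Among the nucleotide, cofactor and glutathione carriers 9 of 10 were detected, none above 30 TPM in either library. The NAD carrier Slc25a51 had 20.8 and 25.6 TPM and the coenzyme A carrier Slc25a42 20.2 and 19.1 TPM. Both were among the higher members of the group, and Slc25a51 was above Slc25a42 in each library. Slc25a16, also linked to coenzyme A, had 14.7 TPM in replicate 1 against 8.00 TPM in replicate 2. The pyrimidine nucleotide carriers Slc25a33 and Slc25a36 had 6.98 and 5.57 TPM and 4.25 and 3.88 TPM, with means of 6.28 ± 0.997 and 4.07 ± 0.262 TPM. Slc25a33 was the higher of this pair in both libraries. Slc25a32, a folate and FAD carrier, had 6.41 and 4.13 TPM (5.27 ± 1.61 TPM). The S-adenosylmethionine carrier Slc25a26 had 3.94 and 4.25 TPM. The peroxisomal member Slc25a17 had 1.68 and 1.11 TPM. The glutathione carrier Slc25a40 missed the rule in replicate 2, with 1.13 and 0.58 TPM (0.855 ± 0.389 TPM); it was the member nearest below the limit, as Slc25a29 was nearest above it.

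The remaining members have other roles. Slc25a28, mitoferrin 2, which carries iron into the matrix, had 43.2 and 40.5 TPM and all of it in 1 protein-coding model. It was the 8th highest of the 44 members. Slc25a46, a member of the outer membrane with a part in mitochondrial shape, had 16.6 TPM in replicate 1 against 10.3 TPM in replicate 2 (13.5 ± 4.43 TPM). The acylcarnitine carrier Slc25a20 had 5.02 and 6.07 TPM. Of the carriers akin to uncoupling proteins Slc25a30 had 9.55 and 10.2 TPM, whereas Slc25a14 had 2 counts in replicate 1 and 1 in replicate 2 and Slc25a27 had 0 in both. Of 8 members whose transport role is less well settled 2 were detected, Slc25a47 at 2.15 and 2.48 TPM and Slc25a35 at 1.20 and 1.55 TPM. In this last group Slc25a43, Slc25a48 and Slc25a54 had 0 counts in both libraries, Slc25a34 had 1 count in each, and Slc25a45 and Slc25a53 lay between 0.15 and 0.74 TPM. In all, 7 of the 14 members that were not detected had 0 counts in both libraries and the other 7 ranged from 0.01 to 1.13 TPM.

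The gene level of several abundant carriers came mostly from transcript models that GENCODE does not class as protein-coding. In 24 of the 30 detected members most of the TPM lay in protein-coding models in both libraries, and in 13 of them all of it. In 6 members less than 50% did in both libraries: Slc25a4, Slc25a11, Slc25a12, Slc25a22, Slc25a35 and Slc25a42. Among detected protein-coding genes 17.2% had this pattern, a share close to that of the members. The erythroid marker Hbb-bs is a further case, with 0.141% and 0.0944% of its TPM in protein-coding models. How reads were divided among models was set by the authors' estimates, and whether these RNAs were present as such was not tested.

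For Slc25a4 the retained-intron model Slc25a4-202 held 88.2% of TPM in replicate 1 and 95.1% in replicate 2, or 44.8 and 73.0 TPM. The protein-coding model Slc25a4-201 had 6.0 and 3.73 TPM. The model that keeps the intron was thus higher in replicate 2 and the coding model lower. For Slc25a11 the short retained-intron model Slc25a11-205, of 531 bases, held 83.1% and 75.2% of TPM. By estimated counts, which are not divided by length, the protein-coding models of Slc25a11 held 43.7% and 55.1%. For Slc25a22 the model Slc25a22-204, classed as a target of nonsense-mediated decay, held 60.0% and 60.7%. For Slc25a12 the decay model Slc25a12-207 held 89.6% and 95.2%, and the coding model Slc25a12-206 had 0.36 and 0.21 TPM. Slc25a42 was divided among retained-intron model Slc25a42-204 (58.3% and 32.5%), its coding model (25.4% and 32.1%) and others. The model Slc25a35-203, a processed transcript, held 87.8% and 94.3% of Slc25a35, which is at the limit of detection.

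Stretches in which 3 of these models differ from a coding model of the same gene are printed to show what separates them. Slc25a22-204 starts an exon with 19 bases that are not in Slc25a22-201, shown in capitals with the next bases of the exon behind them (chr7:141432129-141432158, minus strand). Slc25a4-202 runs on through 428 bases of intron, of which the first 90 are shown in capitals after the last 40 bases of the coding exon (chr8:46208308-46208437, minus strand). Slc25a12-207 leaves out an exon of 116 bases that Slc25a12-206 has, printed whole in capitals (chr2:71333605-71333720, minus strand).
Slc25a22-204: TCCTGCCCCCGCTCTATAGacagaagctga
Slc25a4-202: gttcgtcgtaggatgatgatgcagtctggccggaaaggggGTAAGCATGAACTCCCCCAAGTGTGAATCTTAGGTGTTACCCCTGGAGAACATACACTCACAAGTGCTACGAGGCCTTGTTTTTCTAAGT
Slc25a12-206 exon: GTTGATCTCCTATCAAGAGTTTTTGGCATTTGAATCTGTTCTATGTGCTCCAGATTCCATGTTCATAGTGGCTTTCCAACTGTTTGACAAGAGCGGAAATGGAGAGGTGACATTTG

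**Figure D2:**
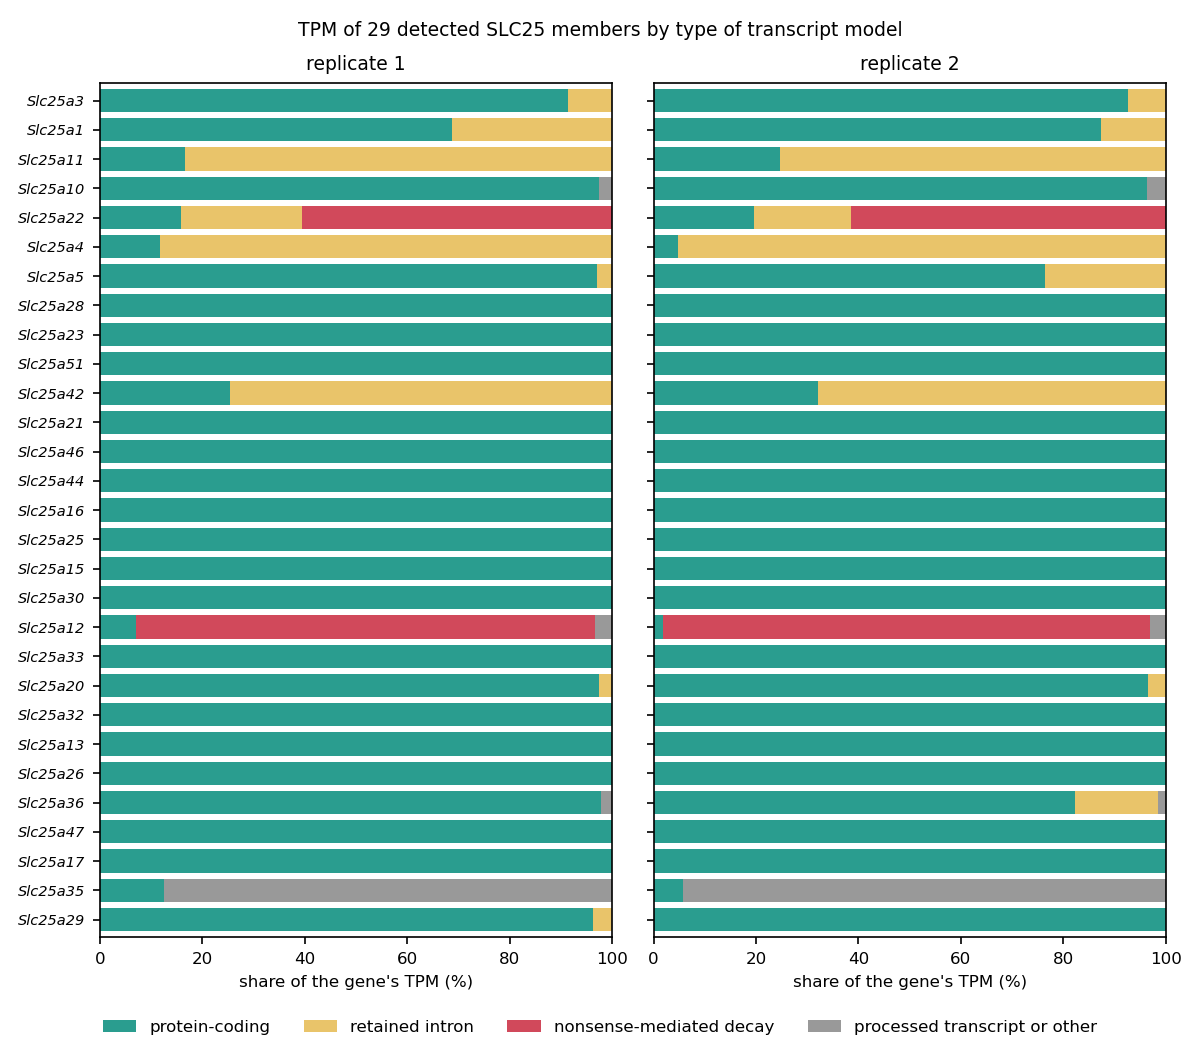
Share of each detected member's TPM in percent by GENCODE M21 class of transcript model, for 29 detected members in order of mean level, with 1 panel per library. Slc25a11, Slc25a22, Slc25a4, Slc25a42, Slc25a12 and Slc25a35 have the short protein-coding bars in both panels.

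The ratio within some paralog pairs depended on which models were counted. By gene level the ratio of Slc25a5 to Slc25a4 was 0.594 in replicate 1 and 0.735 in replicate 2, so Slc25a4 was ahead. By protein-coding models, an alternative chosen after seeing the data, the ratio was 4.88 and 11.55 and Slc25a5 was ahead. The ratio of Slc25a13 to Slc25a12 likewise went from 0.914 and 0.40 by gene to 12.9 and 22.5 by protein-coding models. The leading ADP/ATP carrier was therefore not the same on the 2 scales, in either library. For the aspartate/glutamate carriers Slc25a13 led by protein-coding models, while by gene level the pair could not be ordered beyond its spread. Other pairs kept their order. Slc25a22 was 131-fold and 196-fold above Slc25a18 by gene, and 21-fold and 40.1-fold by protein-coding models. Slc25a15 was 378-fold above Slc25a2 in replicate 1 (95% Poisson interval 105 to 3121) and 113-fold in replicate 2 (48.4 to 348), on either scale. These intervals cover counting error only. The ratio of Slc25a36 to Slc25a33 was 0.609 and 0.697 by gene and 0.590 and 0.576 by protein-coding models.

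**Figure D3:**
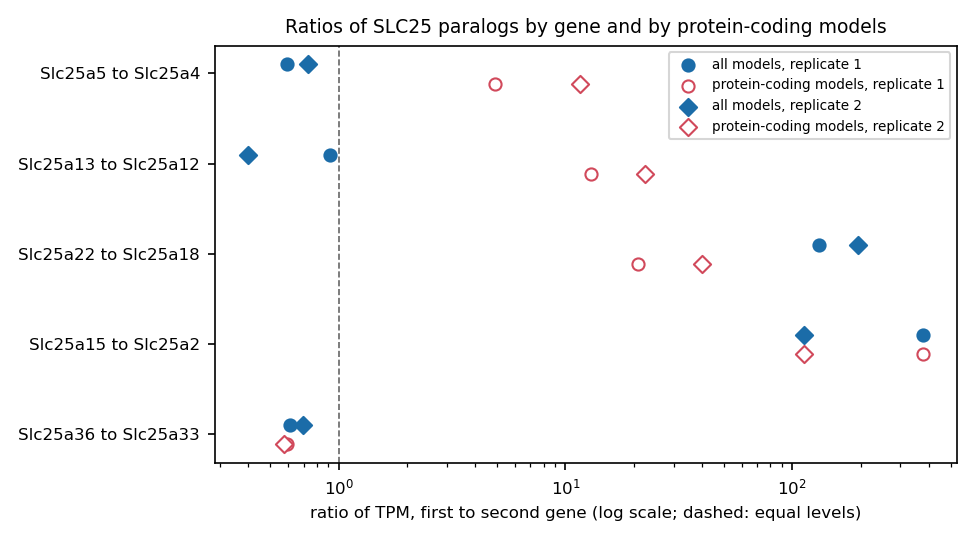
Ratio of TPM within 5 paralog pairs on a log axis, with filled symbols for all models, open symbols for protein-coding models, circles for replicate 1 and diamonds for replicate 2. The dashed line marks equal levels, which the first 2 pairs cross when only protein-coding models are counted, from 0.594 to 4.88 and from 0.914 to 12.9 in replicate 1.

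Counting protein-coding models alone also changed the ranking of the family. Slc25a3 at 487 and 380 TPM and Slc25a1 at 198 and 191 TPM remained the 2 highest. Slc25a10 followed at 82.2 and 72.9 TPM, then mitoferrin 2, Slc25a28, at 43.2 and 40.5 TPM and Slc25a5 at 29.3 and 43.1 TPM. Slc25a11 went from rank 3 to rank 7, at 21.9 and 24.9 TPM, and Slc25a22 from rank 5 to rank 13, at 10.7 and 14.4 TPM. Slc25a4 went from rank 6 to rank 22. On this scale 28 members reached 1 TPM in both libraries.

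Between the libraries 34 members had a mean of at least 10 counts and were tested with an exact two-sided binomial test on estimated counts, adjusted by Benjamini-Hochberg over all 10863 genes tested. The test holds counting error alone and compares these libraries, not conditions. It called 24 of the 34 at an adjusted p under 0.05, against 69.1% of all genes tested, so the members' share was near that of all genes. Of the 24, 9 were higher in replicate 2, where 34.7% of all tested genes were called, and 15 in replicate 1, where 34.4% were. With an assumed coefficient of variation of 0.1 between libraries (edgeR exact test) 8 members were called, 6 higher in replicate 2 (Slc25a4, Slc25a5, Slc25a12, Slc25a23, Slc25a44 and Slc25a45) and 2 higher in replicate 1 (Slc25a40 and Slc25a46). The common coefficient of variation estimated between the libraries was 0.3004. The log2 ratios of the members had an SD of 0.55, that of all tested genes being 0.73.

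Of the members 3 were called and at least 2-fold higher in replicate 2, where 7.46% of all tested genes were. Slc25a45, from only 15 and 33 counts, had a log2 ratio of replicate 2 to replicate 1 of 1.65 (exact binomial test, adjusted p = 3.20e-04). Slc25a44, from 1675 and 2725 counts, had 1.22 (adjusted p = 2.44e-167, same exact test). Slc25a12, from 755 and 1205 counts, had 1.19 (adjusted p = 5.33e-72, same exact test). Its decay model Slc25a12-207 was likewise higher in replicate 2, with 613 and 1135 counts in replicates 1 and 2. The coding model Slc25a12-206 went the other way, with 135 and 59.3 counts. Slc25a44 and Slc25a12 encode carriers of amino acids, whereas the substrate of Slc25a45 is less well settled. No member was called and 2-fold higher in replicate 1, where 1.68% of all tested genes were. The members farthest in that direction were Slc25a40 at -0.85 (adjusted p = 3.59e-05), Slc25a46 at -0.59 (adjusted p = 2.94e-51) and Slc25a32 at -0.53 (adjusted p = 5.60e-12), all by the exact binomial test.

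Both detected ADP/ATP carriers were called higher in replicate 2, Slc25a5 with a log2 ratio of 0.94 (exact binomial test, adjusted p = 2.50e-106) and Slc25a4 with 0.65 (adjusted p = 2.76e-84). The phosphate carrier Slc25a3 was called higher in replicate 1, at -0.34 (exact binomial test, adjusted p = 1.95e-233). By gene counts the 3 genes of ATP export and phosphate import did not move together between the libraries. The coding model Slc25a4-201 went against its gene, with 639 and 298 counts in replicates 1 and 2. The coding model Slc25a5-201 had 1907 and 2119 counts, and the retained-intron model Slc25a5-202 7.38 and 484. By gene counts all 4 di- and tricarboxylate carriers were called higher in replicate 1, but by little. Their log2 ratios were -0.04 for Slc25a1 (exact binomial test, adjusted p = 0.0239), -0.06 for Slc25a10 (adjusted p = 0.0127), -0.08 for Slc25a11 (adjusted p = 0.0365) and -0.30 for Slc25a21 (adjusted p = 1.03e-11). By protein-coding models Slc25a11 was instead higher in replicate 2, at 21.9 and 24.9 TPM. Slc25a1 (198 and 191 TPM), Slc25a10 (82.2 and 72.9 TPM) and Slc25a21 (20.4 and 15.5 TPM) stayed higher in replicate 1. The coding model of Slc25a1 held 90.3% of its counts in replicate 1 and 95.9% in replicate 2, so its other models held a larger share in replicate 1. With DESeq2 size factors the calls of Slc25a1 (exact binomial test, adjusted p = 0.0983) and Slc25a11 (adjusted p = 0.0704) were lost, and with no filter on low counts that of Slc25a11 was lost (adjusted p = 0.0513). With the assumed coefficient of variation of 0.1 the calls of Slc25a3 (edgeR exact test, adjusted p = 0.254), Slc25a1 (0.94), Slc25a10 (0.89) and Slc25a11 (0.857) were lost.

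Of the 7 tested amino acid carriers 3 were called higher in replicate 2 and 1 in replicate 1, against 34.7% and 34.4% of all tested genes. Besides Slc25a44 and Slc25a12, Slc25a22 was called at 0.18 (exact binomial test, adjusted p = 1.61e-13). Slc25a13 had 0.12 (adjusted p = 0.154), Slc25a15 -0.06 (adjusted p = 0.286) and Slc25a18 -0.37 (adjusted p = 0.484) by the exact binomial test, and none of the 3 was called. Scaled by library totals, Slc25a15 was called higher in replicate 1 at -0.16 (exact binomial test, adjusted p = 0.00103). Of the 10 nucleotide, cofactor and glutathione carriers 7 were called, all higher in replicate 1, where 34.4% of all tested genes were called. Among them were Slc25a33 at -0.22 (exact binomial test, adjusted p = 0.0175) and Slc25a36 at -0.22 (adjusted p = 0.00142). With the assumed coefficient of variation of 0.1 only Slc25a40 of this group was still called. The calls of Slc25a33 (edgeR exact test, adjusted p = 0.547), Slc25a36 (0.531) and Slc25a32 (0.0716) were lost, as was that of the amino acid carrier Slc25a22 (0.597). Mitoferrin 2, Slc25a28, had a log2 ratio of 0.01 and was not called (exact binomial test, adjusted p = 0.814).

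For Slc25a23 counts and TPM differed between the libraries in opposite directions. Its counts were called higher in replicate 2, with a log2 ratio of 0.64 (exact binomial test, adjusted p = 2.21e-54), while its TPM was 24.9 in replicate 1 and 22.8 in replicate 2. The effective length the authors used for this gene was 1598 bases in replicate 1 and 2547 bases in replicate 2. Slc25a23-201 held 39.4% of its TPM in the first and 75.3% in the second. Slc25a51 was the other detected member whose TPM and count ratios differed in sign, with effective lengths of 4217 and 3273 bases. Along with these differences Gata1 stood at 1498 TPM in replicate 1 against 2430 TPM in replicate 2, and 3 of 4 megakaryocyte markers were called higher in replicate 2, as were 34.7% of all tested genes. Their part in the differences between the libraries was not tested.

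**Figure D4:**
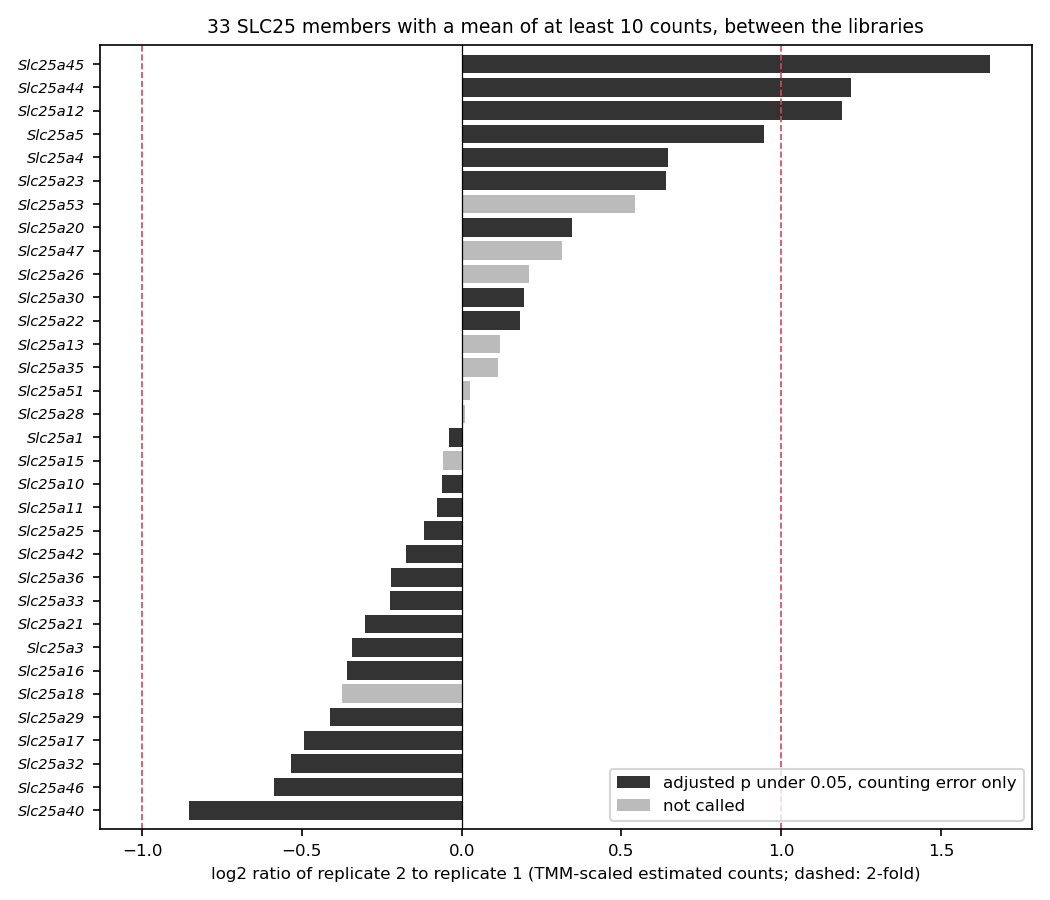
Log2 ratio of replicate 2 to replicate 1 for 33 members with a mean of at least 10 counts, from TMM-scaled estimated counts, in dark for an adjusted p under 0.05 by the exact binomial test and in grey otherwise. Dashed lines mark 2-fold, which 3 members pass, Slc25a45 at 1.65, Slc25a44 at 1.22 and Slc25a12 at 1.19.

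The members are spread over 19 chromosomes, and 4 neighbouring pairs lie close together. Slc25a29 and Slc25a47 stand head to head on chromosome 12 with 163 bases between them, and both were low. Slc25a23 and Slc25a41 follow each other on chromosome 17, 2057 bases apart, yet only Slc25a23 had counts. Slc25a24 and Slc25a54 on chromosome 3 (6462 bases apart) both had 0 counts. Slc25a43, with 0 counts, lies 18449 bases before Slc25a5 on chromosome X.

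The paralogs differed at many coding positions. Slc25a4 and Slc25a5 have coding exons of the same 4 lengths, 111, 487, 141 and 155 bases, and 77.4% identical coding bases, but share 0 stretches of 31 bases. The coding sequences of Slc25a12 and Slc25a13 are 70.5% identical, those of Slc25a18 and Slc25a22 68.1%, of Slc25a23 and Slc25a24 62.4% and of Slc25a33 and Slc25a36 61.9%. Sharing with other genes was larger for 3 members, in which 10% or more of 31-base stretches also occur in another gene's transcripts. In Slc25a5 it was 49.4%, mostly with processed pseudogenes, and the 7 genes with which it shared most had 0 or 1 count. In Slc25a35 it was 27.5%, mainly with Rangrf on the opposite strand (12.9 and 11.2 TPM), so with strand use not given the level of Slc25a35 is uncertain. In Slc25a33 it was 13.5%, with an antisense gene at 0 counts. Slc25a11 also overlaps an abundant gene on the opposite strand, Rnf167 (82.9 and 111 TPM), over 189 exonic bases.

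Promoter windows from RefSeq (build GRCm38.p6), 250 bases before to 50 after the annotated start, were matched for 34 of the 44 members. The 250 bases before the start held a median of 16 CG pairs in detected members and 10 in members not detected. Over protein-coding genes the medians were 17 in those detected and 5 in those not detected. A member with 0 counts could carry as many CG pairs as an abundant one. Slc25a31 has 18, as has Slc25a4, and Slc25a5 has 14. The windows of Slc25a5 (chrX:36795347-36795596, plus strand) and Slc25a31 (chr3:40708621-40708870, plus strand) are shown for that contrast, with CG pairs in capitals. The letters AGATAA, a core that GATA factors bind, were searched on both strands of the whole window. They occur in 3 of 34 members (8.82%), Slc25a5, Slc25a22 and Slc25a53, and in 10.9% of 16317 protein-coding genes with a window.
Slc25a5 promoter: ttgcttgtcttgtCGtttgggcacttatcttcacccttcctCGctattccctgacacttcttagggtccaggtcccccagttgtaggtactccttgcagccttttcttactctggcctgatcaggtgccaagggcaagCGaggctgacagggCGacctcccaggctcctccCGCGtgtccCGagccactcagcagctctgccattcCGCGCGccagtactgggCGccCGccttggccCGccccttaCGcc
Slc25a31 promoter: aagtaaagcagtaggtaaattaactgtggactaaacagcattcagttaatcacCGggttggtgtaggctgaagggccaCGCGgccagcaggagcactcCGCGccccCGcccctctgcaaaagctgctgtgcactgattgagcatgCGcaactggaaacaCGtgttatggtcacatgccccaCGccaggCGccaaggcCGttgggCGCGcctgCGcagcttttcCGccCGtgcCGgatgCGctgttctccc

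Carriers of the same protein family that have other symbols were measured in a list of further carriers and pores of the mitochondrial membranes, whose median was 13.3 TPM with 10 of 15 detected. The highest was Ucp2, an uncoupling protein homologue, at 1290 TPM in replicate 1 against 1004 TPM in replicate 2, above every Slc25a member by gene-level TPM. Its protein-coding models held 35.3% and 39.4% of that, or 455.5 and 395 TPM. In replicate 1 Ucp2 had fewer estimated counts than Slc25a3, and its protein-coding models less TPM than those of Slc25a3. In replicate 2 both orders were the reverse, with 30921 counts for Ucp2 against 28561 and 395 TPM in protein-coding models against 380. Ucp1, the uncoupling protein of brown fat, had 0 counts in both libraries, and Ucp3 had 0 and 3. Mtch1, an outer membrane relative of the carriers, had 155 and 171 TPM. The outer membrane pore gene Vdac2 stood at 724 and 569.5 TPM, and the pyruvate carrier subunit Mpc2 at 112 and 152 TPM. In this list 4 genes were called higher in each library, against 34.7% of all tested genes in replicate 2 and 34.4% in replicate 1. By TMM-scaled counts Ucp2 was called higher in replicate 2, with a log2 ratio of 0.10 (exact binomial test, adjusted p = 3.78e-18). Mpc2 was called higher in replicate 1, at -0.26 (adjusted p = 6.51e-29, same exact test). For Mpc2 counts and TPM thus differed in opposite directions, as for Slc25a23. For Ucp2 the direction by counts depended on the scaling. Against library totals of 68901065 and 51923117, its 41329 and 30921 counts were marginally lower in replicate 2, as was its TPM.

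The machinery that imports carriers was detected in full, 12 of 12 genes with a median of 71.6 TPM. Tomm40, the outer membrane channel, was the highest at 696 and 710 TPM. Timm22, the channel that inserts carriers into the inner membrane, had 32.3 and 26.4 TPM. Of the small TIM chaperones Timm9 had 12.2 TPM in replicate 1 against 27.6 TPM in replicate 2, and Timm10 had 13.5 and 17.5 TPM. Of these import genes 5 were called higher in replicate 2 and 5 in replicate 1, against 34.7% and 34.4% of all tested genes.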

How the data were processed

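Polyadenylated RNA was measured in 2 libraries of G1E-ER4 cells, which the labels place in 1 group. The gene and transcript tables hold expected counts, which are the authors' estimated counts, as named per the file headers. TPM and FPKM were deposited by the authors, also as posterior means, and each transcript's share is a percent of its gene's TPM, per the file headers. Notes deposited with the files name mm10 as the build with GENCODE M4 models. No aligner, quantifier or strand setting is given in the sources used here. Names, classes and models came from GENCODE M21 by identifier without version, of the same build; 42462 genes matched, and 182 of the members' 185 transcript models had a class. Slc25a52 found no match.

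Levels are TPM, with detection at 1 TPM in both libraries. Expected counts were rounded, scaled by TMM (edgeR 4.0.16, R 4.3.3) and compared by an exact two-sided binomial test (scipy 1.17.1) with Benjamini-Hochberg adjustment at 0.05 over genes averaging 10 counts or more; the scripts were tested on simulated data. A quasi-likelihood fit was not used, since 2 libraries compared with each other leave no residual degrees of freedom. A count of 0 was taken as up to 3 counts. Alternatives were other TPM limits, FPKM, posterior means, CPM, TPM without globin and mitochondrial genes, other scalings (DESeq2 1.42.0) and count filters, an assumed coefficient of variation, leaving out each library and, chosen after seeing the data, protein-coding models only. Every member enters the counts, medians and sums, but 1 is not reported here by name. Values are given with full statistics for the 6 highest, the members of 6 paralog pairs, and the 3 farthest in each direction between the libraries; Slc25a31, Hbb-bs and members with a split among models were named in addition. The members and gene lists were chosen with earlier results of these data known. Protein sequences were not used here.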

Additional observations from a re-analysis of the deposited data

How the results depend on the processing

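The number of detected members was 30 and ranged from 22 at 5 TPM to 31 at 0.5 TPM and with posterior mean TPM; FPKM gave 28, CPM 30, and leaving out a replicate gave 30 to 31. The median level of 5.41 TPM was 4.71 in FPKM, 5.55 TPM without globin and mitochondrial genes, 4.78 TPM with protein-coding models only, and 5.055 to 5.145 TPM when a replicate was left out. With protein-coding models only, the log2 ratio of Slc25a5 to Slc25a4 went from -0.56 to 2.90, changing direction. That of Slc25a13 to Slc25a12 went from -0.85 to 4.04, though by gene level this pair could not be ordered beyond its spread. The log2 ratio of Slc25a22 to Slc25a18 went from 7.30 to 4.85 and that of Slc25a36 to Slc25a33 from -0.63 to -0.78. Every paralog ratio between members with counts kept its direction in FPKM, in posterior mean TPM and in each library alone. The number of members called between the libraries was 24, ranged from 22 to 26 under other scalings and count filters, and was 8 with an assumed coefficient of variation of 0.1, which adds spread to the test. That setting called 18.8% of all genes. The 3 members called and 2-fold apart were 3 under every scaling and 2 with a mean of at least 100 counts, which leaves out Slc25a45. Of the 16 detected members with full statistics, the leading transcript was the same in posterior mean TPM for 16. A test between the libraries without 1 of them does not exist. No paired analysis was possible because the libraries form 1 group. Depth limits Slc25a45, Slc25a18 and Slc25a2, which rest on few counts.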
